A study of Mus musculus with 5 samples.

Results

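Cells of the lung at day 16 after cancer cell injection were compared with those at day 11, in mice that had first received tumor-secreted factors (TSF). All annotated cells of the 3 TSF libraries were taken, that is, every cell to which the authors' cell table gave a cell type other than doublet or unknown. These were 14813 of the 22118 annotated cells of the series and of its 23852 cells in all. Library a of day 11 held 5113 annotated cells, library b of day 11 held 4804, and the library of day 16 held 4896. They fell into 12 cell classes and 21 cell types, and 20 of these types had at least 50 cells over the 3 libraries.

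Lungs were dissociated and profiled with the 5′ single-cell chemistry of 10x Genomics, which counts transcripts by unique molecular identifiers (UMIs). All groups were female BALB/C mice that entered the study at 6 weeks of age. TSF mice received intravenous TSF (culture medium in which pieces of resected mammary tumors had been kept, pooled from separate tumors) 3 times per week for 3 weeks in doses of 200 µl. Control mice received control medium (CM), incubated in parallel without tumor, on the same schedule. All mice then received 25000 CD90.1-expressing cells of 4T1, a mouse mammary carcinoma line, by vein. Lungs were taken 11 days later (metastatic seeding, age 10 weeks) or 16 days later (metastatic colonization, age 11 weeks). Cells of 3 mice were pooled per group, so differences between mice cannot be seen, and the cancer cells came from the vein and not from a tumor of the same animal.

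The lung is lined by alveolar type 1 cells, which exchange gas, and alveolar type 2 cells, which make surfactant, on a dense bed of capillary endothelium held by fibroblasts and pericytes. Metastatic cells that arrive by the blood lodge in these capillaries, and those that survive grow among resident and recruited leukocytes. Neutrophils are short-lived granulocytes that carry little RNA, and 4T1 tumors are known for raising their number in mice. Macrophages of the lung comprise alveolar macrophages, which live in the airspace, and others that derive from blood monocytes.

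Between libraries a and b, cell classes (chi-square 11.0, 11 degrees of freedom, p = 0.445) and cell types (chi-square 15.2, 20 degrees of freedom, p = 0.766) differed less than sampling noise allows, while all other pairs of the 5 libraries had chi-square values of at least 50.4 over the classes. They were therefore counted as 1 sample, and the mean of their shares stands for day 11. Each day then had 1 sample, so the difference between days has no replicate check and no test was made. The intervals given are exact 95% intervals of counting error within the libraries and do not cover differences between mice. Total UMIs were 18702292 and 17943723 in a and b and 21451787 at day 16, with medians of 2109, 2163 and 2301.5 UMIs per annotated cell. Any pair of libraries shared at most 46 cell barcodes. Doublet calls took 8.01% and 7.82% of cells in a and b and 5.29% at day 16. The labels of the authors were used as they stand, since expression of most cell types was not analysed here.

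The library of day 16 held more neutrophils and more cancer cells, relative to all other cells, than either library of day 11. A type was counted as higher or lower where its share differed by at least 1.5-fold, with an interval apart from 1, against both a and b. Over all annotated cells 2 of 20 types (10%) were higher by this rule, neutrophils and cancer cells, and 3 of 20 (15%) were lower, which were endothelial cells, B cells and the alveolar type ACT2. With granulocytes left out of the denominator 3 of 18 types (16.7%) were higher, namely cancer cells, M2 macrophages and DN T cells, and 0 of 18 (0%) were lower. None of the 20 types had an interval apart from 1 between b and a. Shares within a library sum to a fixed total and the absolute number of cells was not measured, so more cells of 1 type and fewer of the others cannot be told apart.

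**Figure D1:**
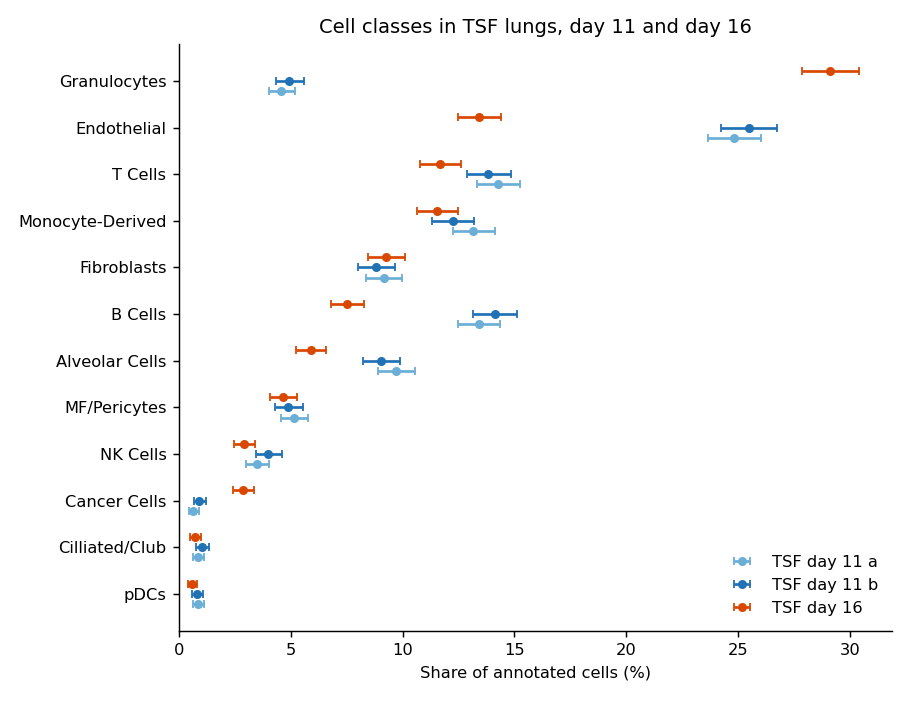
Share of annotated cells (%) in each of the 12 cell classes, as points with exact 95% intervals of counting error, in TSF libraries a and b of day 11 (light and dark blue) and the TSF library of day 16 (orange). Granulocytes lie at 4.58% and 4.93% at day 11 and at 29.1% at day 16, while endothelial cells lie at 24.8% and 25.5% and at 13.4%.

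Cancer cells numbered 32 in library a (0.626% of annotated cells, interval 0.428 to 0.882%), 43 in library b (0.895%, interval 0.649 to 1.20%) and 139 at day 16 (2.84%, interval 2.39 to 3.34%). The 2 libraries of day 11 overlapped and day 16 lay above both. The share was 3.73-fold higher at day 16 (interval 2.81 to 5.04), with 4.54-fold over a alone and 3.17-fold over b alone. Without granulocytes in the denominator the shares were 0.656%, 0.942% and 4.00%, and the ratio was 5.01 (interval 3.78 to 6.77). In CM lungs 6 cancer cells (0.161%) at day 11 and 29 (0.813%) at day 16 gave a ratio of 5.07 (interval 2.07 to 14.9), an interval that holds the TSF ratio.

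Set against the tissue they grow in, cancer cells numbered 2.54 and 3.54 per 100 endothelial cells at day 11 and 21.3 at day 16. For each 100 epithelial cells there were 5.94 and 8.92 cancer cells at day 11 and 43.2 at day 16. CM lungs held 0.702 and then 3.34 cancer cells per 100 endothelial cells, and 1.33 and then 11.2 per 100 epithelial cells. These CM values rest on 6 cancer cells at day 11 and 29 at day 16. Cancer cells are large and rich in RNA, and their median UMIs were 31050 and 30698 at day 11 and 26615 at day 16. They took 6.51% and 8.80% of the UMIs of all annotated cells at day 11 and 20.1% at day 16, the highest share of any type in that library.

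The label of the day 16 cancer cells could be checked in part, since their mean expression is in a deposited table as UMIs per 10000 UMIs of a cell (CP10k). Krt8 and Krt18, the keratins of simple epithelia, were seen in 137 and 138 of 139 cells, at 11.1 and 15.8 CP10k. Epcam, an epithelial adhesion molecule, was seen in 95 cells (68.3%), Krt19 in 53 (38.1%) and Cdh1, the gene of E-cadherin, in 35 (25.2%). CD90.1, the reporter carried by the injected cells, had a UMI in 48 cells (34.5%, interval 26.7 to 43.1%) at 0.235 CP10k. All 6 cancer cell markers were thus detected, and CD90.1 was missed in most cells. The authors had identified the cancer cells by clusters with CD90.1 expression, so CD90.1 is no independent check of the label. Krt8, Krt18, Krt19, Epcam and Cdh1 are epithelial genes, which alone cannot tell carcinoma cells from lung epithelium. Among lung epithelial types, only alveolar type 2 cells had markers of their own in the list. Of the markers of other cell types, Ptprc, the leukocyte antigen CD45, was seen in 4 cells at 0.0117 CP10k, and the neutrophil markers S100a8, S100a9, Csf3r and Retnlg in 2, 4, 7 and 2 cells. S100a9, a calcium-binding protein that fills neutrophils, had a mean of 0.685 CP10k from those 4 cells, above the means of CD90.1 and of Krt19 (0.563 CP10k). The T cell marker Cd3e was seen in 3 cells, the B cell marker Cd79a in 1, the endothelial markers Pecam1 and Cdh5 in 9 and 6, and Col1a1, a fibrillar collagen, in 6. Sftpc and Sftpb, the surfactant proteins of alveolar type 2 cells, and Lyz2, the lysozyme of myeloid cells, were listed at 0 in all 139 cells. These counts had ambient RNA subtracted by the authors, so a 0 does not bound the expression of a gene. Dcn, a matrix proteoglycan of fibroblasts, was seen in 16 cells (11.5%) at 0.526 CP10k, the most cells of any marker of another cell type.

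The authors' finest clusters, called sub-clusters here, split the cancer cells into a pair, numbered 120 and 131. Sub-cluster 120 held 17 of 32 cells in library a (53.1%), 24 of 43 in b (55.8%) and 85 of 139 at day 16 (61.2%, interval 52.5 to 69.3%). The 3 intervals overlapped, but those of a (34.7 to 70.9%) and b (39.9 to 70.9%) were wide. No difference in the balance of the pair between days was seen, and these few cells cannot exclude a moderate one. In CM lungs sub-cluster 120 held 4 of 6 cells at day 11 and 6 of 29 (20.7%, interval 7.99 to 39.7%) at day 16.

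Neutrophils numbered 218 in library a (4.26%, interval 3.73 to 4.85%), 218 in library b (4.54%, interval 3.97 to 5.17%) and 1407 at day 16 (28.7%, interval 27.5 to 30.0%). Day 16 stood far above both, and a and b overlapped. The share was 6.53-fold higher at day 16 (interval 5.87 to 7.29), with 6.74-fold over a and 6.33-fold over b. Basophils, the other granulocytes of the cell table, numbered 16, 19 and 18 cells and stood at 1.04 times the day 11 share (interval 0.555 to 1.89). In CM lungs neutrophils made up 4.01% of cells at day 11 and 5.69% at day 16, a ratio of 1.42 (interval 1.14 to 1.76), whose interval does not reach that of the TSF ratio. There were 0.137 and 0.142 neutrophils per lymphocyte in TSF lungs at day 11 and 1.30 at day 16, so that neutrophils outnumbered lymphocytes in the day 16 library. In CM lungs this ratio was 0.123 at day 11 and 0.170 at day 16.

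**Figure D2:**
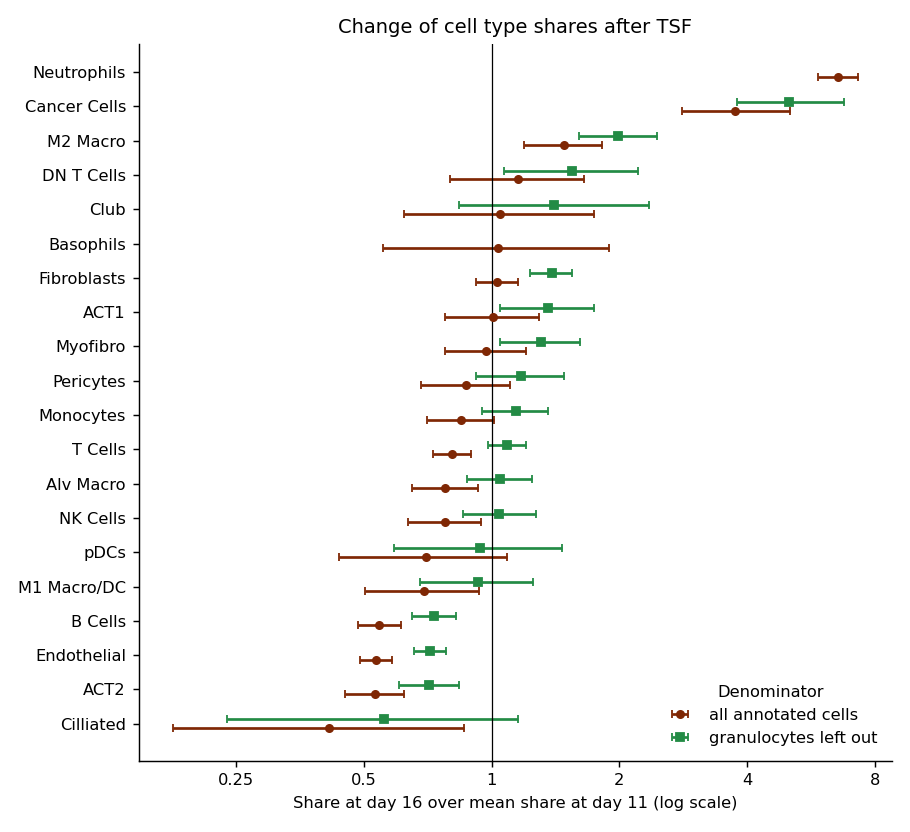
Share at day 16 over the mean share at day 11 in TSF lungs (log scale) for the 20 cell types with at least 50 cells, over all annotated cells (brown circles) and with granulocytes left out (green squares), with exact 95% intervals of counting error. Neutrophils (6.53) and cancer cells (3.73) stand to the right, and leaving out granulocytes moves each of the 18 types with a square to the right. This move follows by construction from the higher share of granulocytes at day 16.

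The neutrophils of day 16 also carried more UMIs. Their median was 1694 UMIs (quartiles 1217 and 2688), against 1052 UMIs in library a (quartiles 901.8 and 1242) and 1078 UMIs in library b (quartiles 922.5 and 1318). Median genes per neutrophil were 419.5 and 428.5 at day 11 and 636 at day 16. The ratio of median UMIs between days was 1.59, the highest of the 20 types, and in CM neutrophils it was 1.14 (1142 and 1299 UMIs). Neutrophils with at least 2000 UMIs numbered 6 in a (2.75% of neutrophils), 3 in b (1.38%) and 560 at day 16 (39.8%). Cells with no mitochondrial UMI made up 77.5% and 72.5% of neutrophils at day 11 and 21.6% at day 16. In CM lungs that share was 55.3% at day 11 and 74.4% at day 16. Median UMIs were higher at day 16 in both arms, while this share was lower at day 16 after TSF and higher after CM. Cells were not thinned to equal depth, since the matrix was not analysed here.

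The cell table begins at 800 UMIs, close to the UMIs of many neutrophils. Under 1000 UMIs lay 43.1% of neutrophils in a, 41.3% in b and 10.2% at day 16, and how many neutrophils lay below the minimum is not known for any library. Requiring 1000 UMIs at day 16 only, an alternative chosen after seeing the data, left the granulocyte ratio at 5.88 against 6.12. Among cells with at least 2000 UMIs, neutrophils made up 0.223% in a, 0.115% in b and 19.8% at day 16. The direction was the same under each minimum, while the size of the difference depended on it. Neither minimum could well turn the direction. The first removes only the 10.2% of day 16 neutrophils under 1000 UMIs, and the second kept 6 and 3 neutrophils of a and b. Cells below 800 UMIs are out of reach of both, so the part of depth in the ratio was not tested.

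Neutrophils of day 16 lay mostly in other sub-clusters than those of day 11. The overlap of 2 libraries is given as the sum, over sub-clusters, of the smaller of their shares, which is 100% for equal distributions. Counting error alone lowers it, and more so with fewer cells or more sub-clusters. It was 81.2% between a and b, 14.2% between a and day 16 and 18.4% between b and day 16. Of 51 neutrophil sub-clusters in TSF lungs, 17 had cells of day 16 and none of day 11, and they held 739 of the 1407 day 16 neutrophils (52.5%). The reverse held for 7 sub-clusters, with 136 day 11 neutrophils (31.2%) and none of day 16. The absence of cells in a sub-cluster among 218 neutrophils allows a share of up to 1.38% in that library. Sub-clusters picked for their size on 1 day favor that day, so the next values are a description. The 10 largest sub-clusters of day 16 held 942 of its neutrophils (67.0%), 5 neutrophils of a and 9 of b, and 27 of CM at day 11 and 2 of CM at day 16. The 5 largest of day 11 held 101 and 100 neutrophils of a and b and 13 of day 16.

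Several of these sub-clusters came from the day 16 TSF library alone. Sub-clusters G.3, G.8, G.36 and G.39 held 124, 114, 50 and 32 neutrophils of that library and no neutrophil of any other. In all, 10 sub-clusters with 353 neutrophils (25.1%) had none in any other library. Some were small, such as G.45 with 9 neutrophils and G.47 with 1, where absence elsewhere cannot be told from counting error. Depth varied among the 10, with a median of 1282.5 UMIs in G.3 and 8582 UMIs in G.39. The day 16 TSF and CM neutrophils overlapped by 11.3%, and the CM neutrophils of both days by 44.2%. A cluster mostly of 1 library may be that library and not a kind of neutrophil, and these cannot be told apart with 1 library at day 16. The genes that define these sub-clusters were not analysed here, and depth moved with them, a part that was not tested.

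**Figure D3:**
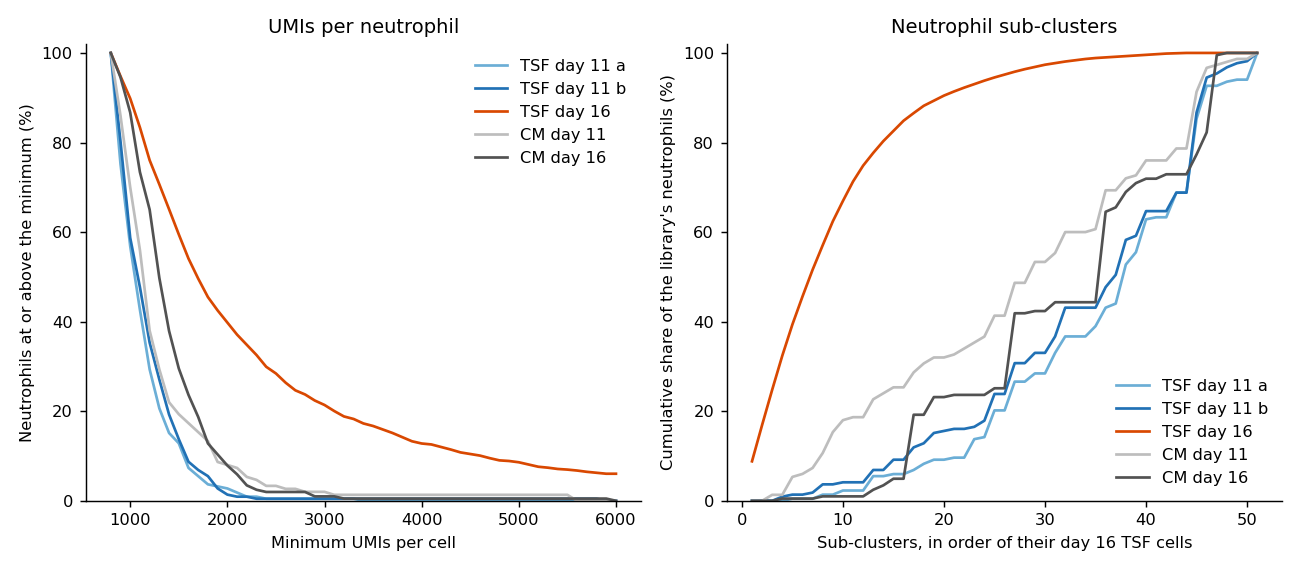
Left, share of neutrophils (%) at or above each minimum of UMIs per cell, with a line for each of the 5 libraries. Right, cumulative share of each library's neutrophils (%) over the 51 sub-clusters, ordered by their day 16 TSF cells. The day 16 TSF line reaches 39.8% at 2000 UMIs on the left, and on the right the order itself places that line above the others, with 67.0% in the first 10 sub-clusters.

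Endothelial cells, which line the vessels, were the most abundant type at day 11 and took a lower share at day 16. They made up 24.6% of cells in library a, 25.2% in b and 13.3% at day 16, a ratio of 0.534 (interval 0.489 to 0.582). Without granulocytes the shares were 25.8%, 26.6% and 18.8% and the ratio was 0.717 (interval 0.657 to 0.782), which stays below 1 and short of the 1.5-fold limit. In CM lungs endothelial cells made up 22.9% at day 11 and 24.3% at day 16, at a ratio of 1.06 (interval 0.967 to 1.17). Their share of UMIs in TSF lungs was 23.7% and 22.5% at day 11 and 10.1% at day 16. Lymphatic endothelial cells numbered 9, 11 and 5 cells, too few to compare.

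Stromal cells, which are fibroblasts, myofibroblasts and pericytes, made up 14.3%, 13.7% and 13.9% of all annotated cells. Their share did not differ between days beyond counting error, at a ratio of 0.992 (interval 0.903 to 1.09). Without granulocytes they made up 15.0%, 14.4% and 19.6%, a ratio of 1.33 (interval 1.21 to 1.46), beside 1.29 in CM lungs. Fibroblasts, which build the matrix, followed with a ratio of 1.38 (interval 1.23 to 1.55), myofibroblasts, their contractile relatives, with 1.30 (interval 1.05 to 1.62), and pericytes, which wrap capillaries, with 1.17 (interval 0.917 to 1.48). Among cells with at least 2000 UMIs the fibroblast ratio without granulocytes was 1.09, below that interval. The joint class of myofibroblasts and pericytes had 1.23 there. Within the stroma no type changed its share beyond counting error, as fibroblasts made up 64.0%, 64.3% and 66.6% of it. There were 0.371 and 0.349 fibroblasts per endothelial cell at day 11 and 0.695 at day 16, against 0.394 and 0.435 on the 2 days in CM lungs.

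Epithelial cells made up 10.5% and 10.0% of cells at day 11 and 6.58% at day 16, a ratio of 0.639 (interval 0.562 to 0.725). Without granulocytes they made up 11.0%, 10.6% and 9.28%, a ratio of 0.859 (interval 0.755 to 0.974). The authors named the alveolar types ACT1 and ACT2, read here as type 1 and type 2 cells. ACT2 cells made up 7.73%, 7.18% and 3.96% of all annotated cells, a ratio of 0.532 (interval 0.451 to 0.623), and 0.714 without granulocytes (interval 0.606 to 0.837). ACT1 cells made up 1.98%, 1.83% and 1.92%, a ratio of 1.01, and 1.36 without granulocytes (interval 1.05 to 1.74), which was 0.996 among cells with at least 2000 UMIs. The epithelium held fewer ACT2 cells for each ACT1 cell at day 16, with 3.91 and 3.92 at day 11 and 2.06 at day 16. CM lungs had 3.37 at day 11 and 1.64 at day 16, a difference in the same direction. Of the rarer epithelial types, ciliated cells, which move mucus, numbered 24, 20 and 9, and club cells, the secretory cells of the bronchioles, numbered 19, 29 and 25. The ratio of ciliated cells was 0.415 over all cells (interval 0.178 to 0.860) and 0.558 without granulocytes (interval 0.239 to 1.16), and that of club cells was 1.05 (interval 0.623 to 1.75).

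Lymphocytes made up 31.1%, 31.9% and 22.1% of all annotated cells. Without granulocytes they made up 32.6%, 33.6% and 31.1%, a ratio of 0.940 (interval 0.877 to 1.01), so most of the lower share went with the granulocytes in the denominator. Their makeup differed between the days. B cells, which make antibodies, were 43.0% and 44.2% of lymphocytes at day 11 and 34.0% at day 16, a ratio of 0.779 (interval 0.693 to 0.875). T cells were 42.9% and 40.5% at day 11 and 48.2% at day 16, a ratio of 1.16 (interval 1.04 to 1.28). The T cells per B cell were 0.997 and 0.917 at day 11 and 1.42 at day 16, and 0.970 and 1.45 in CM lungs, a difference in the same direction in both arms.

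Over all annotated cells B cells made up 13.4%, 14.1% and 7.50%, a ratio of 0.545 (interval 0.485 to 0.612), which became 0.732 without granulocytes (interval 0.651 to 0.823). Among cells with at least 2000 UMIs the direction turned, to 1.05 over all cells and 1.31 without granulocytes, and B cells were no longer counted as lower. That minimum kept only 60, 70 and 73 B cells of a, b and day 16 (8.76%, 10.3% and 19.9%), so it describes a small part of them. T cells had a ratio of 0.809 over all cells (interval 0.729 to 0.896) and 1.09 without granulocytes (interval 0.98 to 1.20), so their direction turned with the denominator. Natural killer (NK) cells, which kill stressed and transformed cells, did the same, with 0.776 (interval 0.636 to 0.946) and 1.04 (interval 0.855 to 1.27). DN T cells, a small T cell type whose label is not spelled out in the sources used here, numbered 46, 42 and 50. Their ratio was 1.15 over all cells (interval 0.797 to 1.65), and without granulocytes it was 1.55 (interval 1.07 to 2.21), from 0.943%, 0.920% and 1.44%. Against a and b alone, the intervals without granulocytes began at 1.003 and 1.018. In CM lungs the ratio without granulocytes was 1.57 (interval 0.875 to 2.88), from 21 and 31 DN T cells. With cells of at least 2000 UMIs, or with ratios divided by the median ratio of the classes, DN T cells were no longer counted as higher.

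M2 macrophages, the class named for macrophages of tissue repair, stood out among the myeloid cells other than granulocytes. They numbered 117 (2.29%), 97 (2.02%) and 156 (3.19%), a ratio of 1.48 (interval 1.19 to 1.82). Without granulocytes they made up 2.40%, 2.12% and 4.49%, a ratio of 1.99 (interval 1.60 to 2.45). In CM lungs the ratio over all cells was 0.685 (interval 0.497 to 0.939), on the other side of 1. Among monocyte-derived cells and plasmacytoid dendritic cells, M2 macrophages were 16.3% and 15.5% at day 11 and 26.3% at day 16, a ratio of 1.65 (interval 1.33 to 2.04), which a change in other compartments cannot move. Their median UMIs were 4163 and 4289 at day 11 and 6432.5 at day 16. Over their sub-clusters, a and b overlapped by 76.1%, day 16 overlapped with a by 53.8% and with b by 42.7%, and no sub-cluster held M2 macrophages of day 16 without any of day 11. The M2 macrophages of the CM days, 104 and 68 cells, overlapped by 58.7%.

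The other myeloid types gained no share by the 1.5-fold rule. Alveolar macrophages made up 4.58%, 4.66% and 3.59% of cells, and without granulocytes 4.80%, 4.90% and 5.07%, a ratio of 1.05 (interval 0.874 to 1.25). There were 0.5 and 0.433 M2 macrophages per alveolar macrophage at day 11 and 0.886 at day 16, while CM lungs went from 0.588 to 0.337. Monocytes, the blood precursors of macrophages, made up 4.46%, 3.91% and 3.55%, and without granulocytes their ratio was 1.14 (interval 0.948 to 1.36). The joint type of M1 macrophages and dendritic cells had a ratio of 0.692 (interval 0.505 to 0.933), and 0.930 without granulocytes. Plasmacytoid dendritic cells, makers of interferon, numbered 43, 38 and 28, with ratios of 0.701 (interval 0.439 to 1.09) and 0.942.

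**Figure D4:**
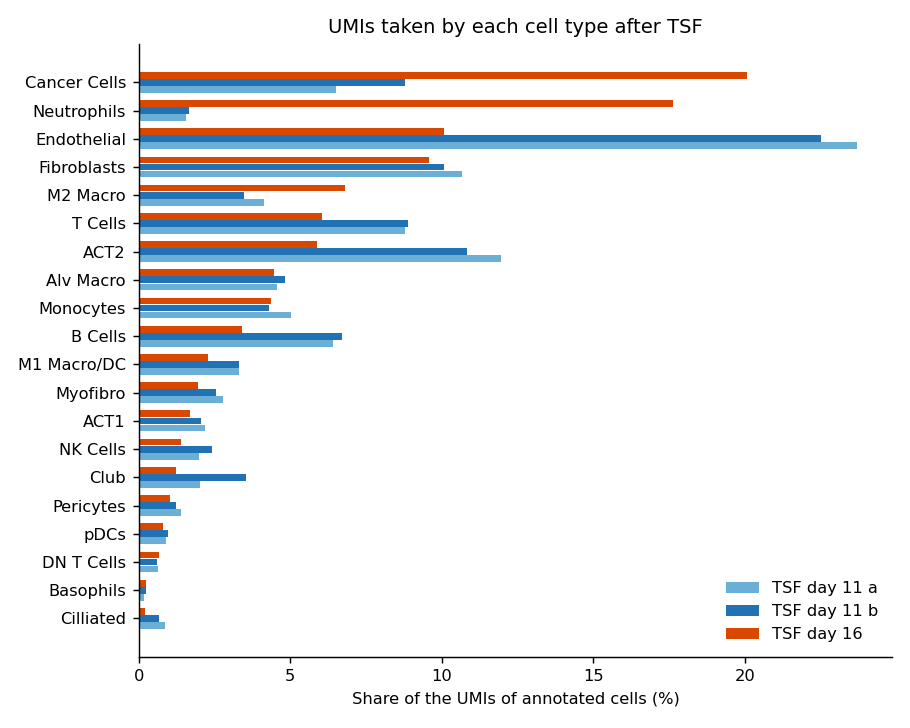
Share of the UMIs of annotated cells (%) taken by each of the 20 cell types in TSF libraries a and b of day 11 (light and dark blue bars) and of day 16 (orange bars), without replicates of day 16. Cancer cells go from 6.51% and 8.80% to 20.1% and neutrophils from 1.57% and 1.66% to 17.6%, while endothelial cells go from 23.7% and 22.5% to 10.1%.

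Depth and sub-cluster differed between the days in most types, and also in CM lungs. Median UMIs per cell were higher at day 16 than in both a and b in 12 of 20 types and lower in 4, with a median ratio of 1.13, and in CM lungs they were higher at day 16 in 18 of 20 types. The median percent of mitochondrial UMIs was higher at day 16 than in both a and b in 15 of 19 types, and in CM lungs in 8 of 19. Club cells had the lowest ratio of median UMIs, 0.388, from 15990 and 22351 UMIs at day 11 to 7447 at day 16.

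In 11 types with at least 100 cells in each TSF library, a and b overlapped in their sub-clusters by 70.2% to 87.6%, and day 16 overlapped with a or b by 14.2% to 68.0%. In all 11, a and b overlapped more with each other than either did with day 16. Leaving out neutrophils, the lowest overlap of day 16 with a or b was 32.5%, for alveolar macrophages. The CM libraries of the 2 days overlapped by 21.6% to 71.1% in these types, and were lowest in alveolar macrophages too. The minimum of 100 cells held for the TSF libraries only. CM lungs held 46 pericytes, 78 NK cells and 98 myofibroblasts at day 11, and 84 monocytes at day 16. At day 16 the TSF and CM libraries overlapped by 49.4% to 85.1% in the types other than neutrophils. In 9 of these 10 types the day 16 libraries overlapped more with each other than the 2 days did in either arm. The exception was monocytes, with 49.4% at day 16 and 50.9% between the CM days. How far counting error in the small CM counts sets this number of types was not tested. Day and library cannot be told apart in either arm.

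**Figure D5:**
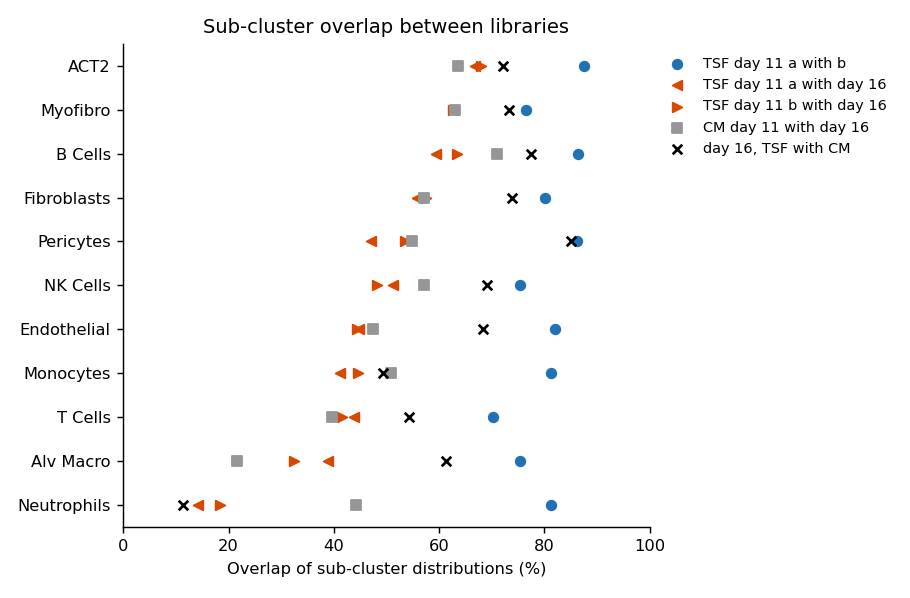
Overlap of sub-cluster distributions (%, the sum of the smaller shares) between pairs of libraries, for the 11 cell types with at least 100 cells in each TSF library. Circles (a with b) lie at 70.2% to 87.6% and to the right of the orange triangles (a or b with day 16) in every type, and neutrophils have the lowest triangles, at 14.2% and 18.4%.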

How the data were processed

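Per the labels and the methods, the authors ran Cell Ranger on genome build mm10 (GRCm38.p6), extended by the CD90.1 reporter, loaded the counts into Seurat 4.1.0 and subtracted ambient RNA with a modified SoupX pipeline. The deposited cell table holds, for each cell, the UMI counts and gene counts, the percent of mitochondrial UMIs as the authors computed it, the cluster from their final fine sub-clustering, and the authors' class and type. The smallest values in it were 800 UMIs and 202 genes per cell, and the highest mitochondrial share was 9.99%. Cells the authors called doublets or unknown were left out, and no further doublet caller was run. The table also held 2 samples not described in the labels, which were not used.

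For the day 16 cancer cells, the authors' deposited gene table gave the mean CP10k and the number of cells with a UMI. Its fold changes, p-values and ranking, and the authors' tables of gene set enrichment scores, compare TSF with CM and were not used.

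Shares have exact Clopper-Pearson intervals and ratios of shares exact conditional intervals at the 95% level. Ratios set day 16 over the mean of libraries a and b, with pooled counts for the interval. The interval code was tested on simulated data. UMIs limit but do not remove amplification error. The labels do not say whether a and b came from separate pools of mice. All cell classes, and all types with at least 50 cells over the TSF libraries, are described. The types, markers and comparisons were chosen with earlier results of these data known. The alternatives left out granulocytes, kept doublets, used non-immune cells only, changed the UMI and mitochondrial limits, scaled by the median class ratio, pooled a and b, left out either, or required a 2-fold difference. Tables were read with pandas 2.3.3, intervals computed with scipy 1.17.1 and numpy 2.4.6, and plots drawn with matplotlib 3.10.9, under Python 3.11.15.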

Additional observations from a re-analysis of the deposited data

Results flagged for a closer look

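Several ratios of day 16 over day 11 lay on opposite sides of 1 after TSF and after CM, a difference that was not tested, with 1 sample for each day and arm. Both intervals lay apart from 1 for a few of them. Over all annotated cells these were NK cells (TSF 0.776, interval 0.636 to 0.946, and CM 1.48, interval 1.10 to 2.00), the T cell class (TSF 0.831, interval 0.752 to 0.916, and CM 1.20, interval 1.07 to 1.35) and M2 macrophages (TSF 1.48, interval 1.19 to 1.82, and CM 0.685, interval 0.497 to 0.939). Without granulocytes they were M2 macrophages (TSF 1.99, interval 1.60 to 2.45, and CM 0.696, interval 0.505 to 0.954) and the monocyte-derived class (TSF 1.22, interval 1.10 to 1.35, and CM 0.807, interval 0.706 to 0.921).

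For the others at least 1 interval held 1. In the endothelial class the TSF ratio was 0.534 (interval 0.489 to 0.582) over all cells and 0.717 (interval 0.657 to 0.782) without granulocytes, and the CM ratios were 1.06 (interval 0.964 to 1.17) and 1.08 (interval 0.980 to 1.18). Alveolar macrophages had 0.778 (interval 0.650 to 0.928) after TSF and 1.20 (interval 0.973 to 1.47) after CM, over all cells. Pericytes had 0.872 (interval 0.683 to 1.10) and 2.30 (interval 1.61 to 3.34), and their joint class with myofibroblasts had 0.924 (interval 0.786 to 1.08) and 1.48 (interval 1.19 to 1.85). Myofibroblasts had 0.971 (interval 0.778 to 1.20) and 1.10 (interval 0.827 to 1.47), where neither arm differed between days beyond counting error. Without granulocytes monocytes had 1.14 (interval 0.948 to 1.36) after TSF and 0.517 (interval 0.394 to 0.675) after CM, and ACT1 had 1.36 (interval 1.05 to 1.74) and 0.961 (interval 0.705 to 1.31). With granulocytes left out, the TSF ratios of NK cells, T cells, alveolar macrophages, myofibroblasts and pericytes lay above 1, on the side of the CM ratios.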

How the results depend on the processing

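Neutrophils and cancer cells were counted as higher at day 16 under every setting with all annotated cell types in the denominator. The cancer cell ratio was 5.10 over non-immune cells, and the granulocyte ratio was 48.8 among cells with at least 2000 UMIs and 7.62 when divided by the median class ratio (0.803). The count of lower types over all cells, 3 in the report, was 0 with granulocytes left out, 0 when divided by the median class ratio and 0 at 2-fold. Leaving out a or b gave 3 to 5 lower types, and the 5 without library b added ciliated cells and the joint type of M1 macrophages and dendritic cells. Without granulocytes 1 type was higher at 2-fold (cancer cells) and 1 was lower with at most 5% mitochondrial UMIs (endothelial cells). Directions turned for B cells among cells with at least 2000 UMIs, to 1.05 over all cells and 1.31 without granulocytes, and for ACT1 without granulocytes, to 0.996. That minimum kept 8.76%, 10.3% and 19.9% of the B cells of a, b and day 16. Leaving out granulocytes turned T cells to 1.12 (the class, with DN T cells), NK cells to 1.04 and alveolar macrophages to 1.05, and dividing by the median class ratio turned T cells to 1.03. A smaller denominator raises every share in it by construction, and for the other settings the cause was not tested. Of 404 alternative values of single shares, 352 moved by less than counting error, 45 moved further and 7 turned. The settings differed widely in this. With granulocytes left out 12 of 21 values moved further, besides the turns of T cells, NK cells and alveolar macrophages. Keeping doublets, pooling a and b, or leaving out either library moved 0 of 45 values each. A turn was counted only where the main interval lay apart from 1. Other ratios crossed 1 from a main interval that held 1, as for pericytes (0.872 over all cells and 1.17 without granulocytes). No paired analysis was possible, since the lungs of each day came from different mice whose cells were pooled, and no test was made. Rare types are limited by their counts, with 9 ciliated cells at day 16.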
